A study of Mus musculus with 4 samples.

Results

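Circular RNAs (circRNAs) that hold 2 or more exons and begin at exon 2 of their host gene were examined in mouse brain tissue after stroke. A circRNA was included when both of its ends lay on exon boundaries of 1 protein-coding gene in GENCODE M21 (GRCm38), when it spanned 2 or more exons and at most 100000 bases, and when its 5′ exon on the strand of the host was exon 2. Where several transcripts hold both ends, exons were numbered on the one with the most exons. This rule uses no measured value, and it selected 3978 of the 23980 circRNAs of the table (16.6%), from 2246 host genes. They are 22.5% of the 17687 multi-exon circRNAs of protein-coding hosts that lie within the same span. They are called exon-2 circles here.

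The study sequenced ribosomal RNA-depleted total RNA from mice with permanent middle cerebral artery occlusion (MCAO), in which an intraluminal filament closes the artery, and from sham-operated mice. Of the 4 libraries, 3 were made 3 h after MCAO: core frontal is infarct core on the side of the frontal lobe, core occipital is infarct core on the side of the occipital lobe, and penumbra is the tissue around the core. The fourth is cortex of sham mice from places that match core and penumbra. For the MCAO libraries the RNA of 6 mice was pooled before library construction; the sources used here do not give the strain, sex and age of the mice, nor the number and sampling time of the sham mice. With 1 library per group there is no replicate error, and each difference below is between 2 libraries, so variation between pools, dissection and group cannot be told apart. The libraries held 121393, 83090, 96349 and 106558 circRNA counts, core frontal first, then core occipital, penumbra and sham, and all lists of 4 values below keep this order. Levels are counts scaled to the library's circRNA total and given in CPM, so that a lower CPM can reflect less of one circle or more of others. All intervals are at 95%, cover counting error only, and stand in square brackets.

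A circRNA forms by back-splicing, in which the splice donor at the end of an exon is joined to the splice acceptor at the start of the same or an earlier exon, and the closed loop has no free end for exonucleases to attack. The first exon of a gene starts at the cap and has no splice acceptor, so exon 2 is the first exon at which a circle can begin. Long introns on both sides of the circularized exons, often with inverted repeats that pair with each other, are known to favour back-splicing, and brain is a tissue rich in circRNAs.

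The only sequence that tells a circle from its linear host RNA is the junction at which the end of the last exon meets the start of exon 2. The junctions of the 6 most abundant exon-2 circles, and of 6 of the circles called between 2 libraries, are shown so that a read or a primer across them can be recognized. Each runs 5′ to 3′ on the host strand, with the last 15 bases of the last exon in lower case and the first 15 bases of exon 2 in capitals, read from GENCODE M21 transcripts (GRCm38).
Ssbp2 exons 2 to 4: gccttccatgattatGTTAGCACTCTACGT
Elf2 exons 2 to 4: agaattcagaaacagTAGTTCCAGAGAACC
Ankib1 exons 2 to 5: tgcttcgagctcacgAATGTGAAACATGTT
Rasa2 exons 2 to 5: gcagcttgttgtacaATGAAGCAAAAAATT
Phf21a exons 2 to 6: ttgagtgagaaacagGGGACTGGAGAGCTG
Zfp148 exons 2 to 4: gcactcaatgtccctGATAGAAGAGAAGAA
Zdhhc21 exons 2 to 6: aaaaagcgtaacttgGTACTCACAGAGAAC
Wscd2 exons 2 to 3: caactgtgctgaacgGTGGTAGCCCGGTGG
Epb41l3 exons 2 to 3: ggctgcgatgtggacAACAATCAACCATGA
Glce exons 2 to 4: agtttattgctccagGAATTTAACAAGAAA
Smarca1 exons 2 to 23: actaaaactccaatgAAAATCACTTCTCCA
Nbea exons 2 to 6: ttccagcctcgcaagCTGGTTGGTGGGGAA
Any circle that begins at the same acceptor carries the same capitals, so the lower-case part is what separates circles of 1 host that share exon 2.

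Exon 2 was the most frequent start. Multi-exon circles began at exon 2 in 3978 cases, at exon 3 in 2231 (12.6%), at exon 4 in 1729 (9.78%) and at exon 12 in 417 (2.36%). In counts the difference was wider, with 33.3% of the counts of multi-exon circles on those that begin at exon 2 and 12.3% on those that begin at exon 3. Of the exon-2 circles, 12.02% had 40 or more counts over the 4 libraries, and of the circles that begin at exon 3, 8.29%. Genes with fewer exons have no late exons to start from, so the counts were also set against the genes that have the intron in question. Of 20684 protein-coding genes with an intron before exon 2, 10.9% hosted an exon-2 circle, compared with 7.76% of the genes with an intron before exon 3 and 4.73% of those with an intron before exon 12. Only 13 multi-exon circles began at an exon numbered 1 in the transcript chosen for them. Circles of 1 host are not independent, so these shares are given with no test.

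**Figure D1:**
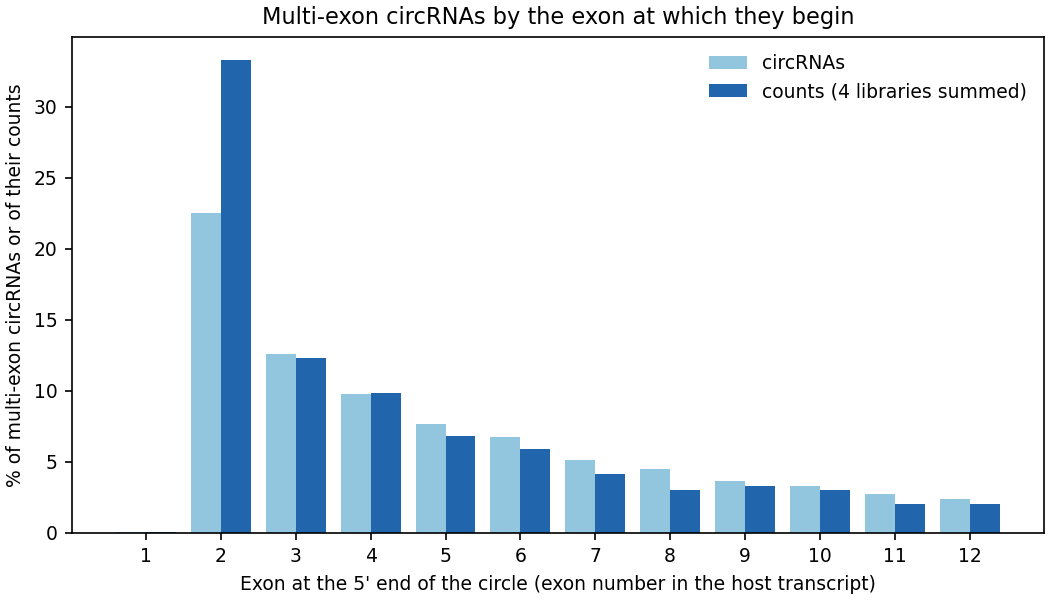
Share of multi-exon circRNAs of protein-coding hosts (light bars) and of their counts summed over the 4 libraries (dark bars), in percent, by the number of the exon at which the circle begins (exons 1 to 12). Exon 2 holds 22.5% of the circles and 33.3% of the counts, above every later exon shown.

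The intron before an exon-2 circle, which is the first intron of the transcript, was long. Its median length was 17537 bases, compared with 9897 bases for the intron before circles that begin at exon 3 and 4069 bases before those that begin at exon 12. First introns are long in general, with a median of 2485 bases over all protein-coding genes, but those of the 2246 hosts had a median of 15724.5 bases. The later introns of the same hosts had a median of 1926 bases, so the length lay in the first intron and much less in the rest of the gene. In 92.4% of these hosts the first intron was longer than the gene's own median later intron. For the 2344 hosts of multi-exon circles without an exon-2 circle this share was 64.3%, with a median first intron of 3653.5 bases, and for all protein-coding genes it was 66.9%.

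The intron after the last exon of exon-2 circles was not long to the same degree. Its median was 6537 bases, close to the 5966 bases after circles that begin at exon 3 or later. The intron before was longer than the intron after in 77.0% of exon-2 circles and in 51.2% of the circles with a later start. The intron before was 10000 bases or longer in 68.8% and 34.7%. Among the 955 circles with a later start and 40 or more counts the median intron before was 10132 bases and the median intron after 12387 bases. Among the 478 exon-2 circles with 40 or more counts the median intron before was 20848 bases and the median intron after 11910 bases. Of the 6 most abundant, Ssbp2 lay between introns of 63336 and 77607 bases, Elf2 between 14378 and 41183, Ankib1 between 29809 and 12836, Rasa2 between 19864 and 9123, Phf21a between 29696 and 89504, and Zfp148 between 40293 and 21901. Other circles lay behind first introns that were shorter than the median of the group. That of Zdhhc21 measured 5374 bases and that of Smarca1 5027 bases. The first intron before exons 2 to 8 of Dpy19l1 measured 2057 bases, under the median of 2485 bases over all protein-coding genes.

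**Figure D2:**
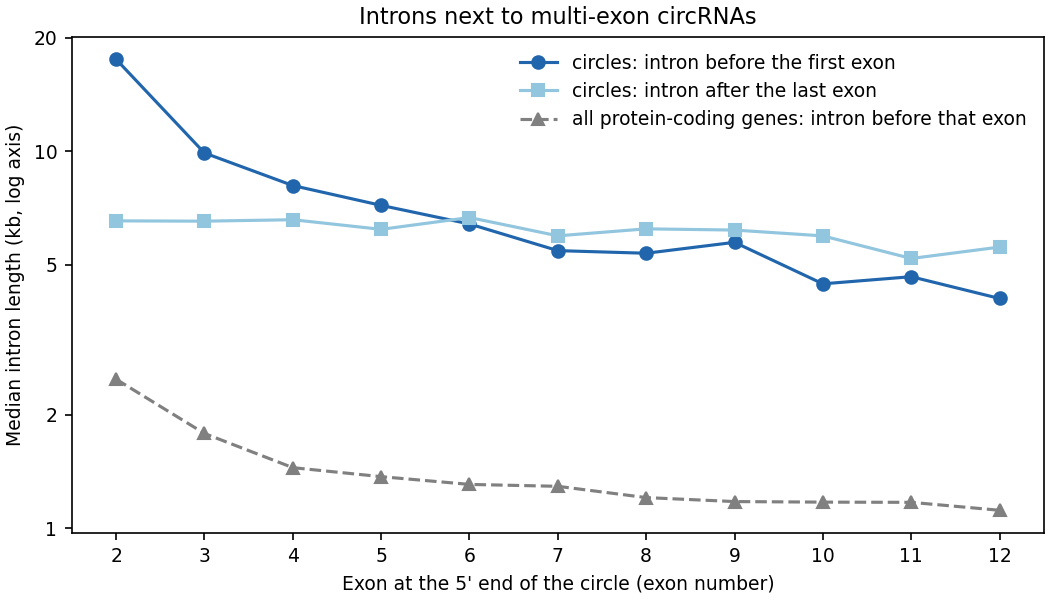
Median length in kb (log axis) of the intron before the first exon and after the last exon of multi-exon circRNAs, by the exon at which the circle begins, with the median intron before that exon over all protein-coding genes (dashed). The intron before the circle falls from 17537 bases at exon 2 to 4069 bases at exon 12, while the intron after it changes little.

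The circles were somewhat longer in median than those that begin at exon 3 or later. The median spliced length was 589.5 bases (range 74 to 6424) over a median of 4 exons, compared with 525 bases and 4 exons for circles that begin at exon 3 or later. The genomic span of exon-2 circles, introns included, had a median of 15551 bases, compared with 11226.5 bases for later starts. Exons 2 and 3 alone formed 813 circles (20.4%), exons 2 to 4 formed 765 (19.2%) and exons 2 to 5 formed 604 (15.2%). Circles of 3 exons held the largest share of the counts, 26.5%, ahead of 21.01% for circles of 2 exons and 17.9% for those of 4. More than 10 exons were joined in 341 circles (8.57%), up to 34 exons, and in 6.53% of the circles with a later start. GC content of the spliced sequence had a median of 46.7%, and 47.7% for later starts.

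The annotated start codon of the host often lay in these circles. It was inside 1470 exon-2 circles (37.0%), compared with 3.9% of the circles that begin at exon 3 or later, and in 1164 (29.3%) it lay in exon 2 itself. In 59.5% the start codon lay before the circle, in exon 1. Wholly coding sequence made up 58.3% of exon-2 circles and 91.4% of later ones, and 2.77% held no coding base. The spliced length was divisible by 3 in 36.6%. When the frame of the annotated start codon was followed around the loop, it passed the junction in 1418 of the 1470 circles (96.5%), it met no stop codon at all in 153 (10.4%), and it ran a median of 226 codons before a stop in the others. These are properties of the annotated sequence, and translation was not measured. In Fam53b exons 2 to 4 the frame ran 318 codons, in Epb41l3 exons 2 to 3 it ran 139 codons, and in Elf2 exons 2 to 4 it ran 87 codons. Ssbp2, Rasa2, Smarca1 and Nbea gave circles wholly of coding bases without the start codon. Tlk1 exons 2 to 3 and Ptk2 exons 2 to 4 held no coding base on the transcript used.

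Exon-2 circles were concentrated in a part of the hosts and in a small number of circles. Of 4590 hosts of multi-exon circles, 48.9% had at least 1. In 804 hosts these were the only multi-exon circles, and in 1442 there were others too. The circle with the most counts was an exon-2 circle in 1499 of the 2246 hosts (66.7%), and 48.8% of the counts of these hosts fell on exon-2 circles. The 10 most abundant held 12.8% of the counts of the group, the 100 most abundant 43.2%, and 151 circles held 50%. At the other end, 603 (15.2%) had only 2 counts, the minimum of the table. Of the 100 most abundant circRNAs of the whole table, 41 were exon-2 circles. All 4 libraries detected 1558 of the exon-2 circles (39.2%, against 30.4% of the table), and 302 were seen in 1 library only.

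The share of all circRNA counts that fell on exon-2 circles was 25.9% [25.7–26.1] in the frontal core and 24.3% [24.0–24.6] in the occipital core. It was 24.9% [24.6–25.2] in penumbra and 25.7% [25.5–26.0] in sham. It was lowest in core occipital and next lowest in penumbra, while core frontal and sham overlapped. As a ratio the share was 0.945 [0.928–0.962] in core occipital against sham, 0.969 [0.952–0.986] in penumbra against sham, 1.01 [0.990–1.02] in core frontal against sham and 1.07 [1.05–1.08] in core frontal against core occipital. The share on multi-exon circles with a later start was 50.3%, 50.8%, 50.8% and 51.0%, with ratios between 0.987 and 1.01 over the 6 pairs. The share on single-exon circles was 7.26%, 8.15%, 7.64% and 6.98%, highest in the library where exon-2 circles were lowest. A difference of this size between libraries cannot be told apart from variation between pools.

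The most abundant exon-2 circle was that of Ssbp2, which encodes a single-stranded DNA-binding protein that takes part in LIM-domain transcription complexes (chr13:91524585-91564694, exons 2 to 4, 220 bases spliced). It measured 7620, 6018, 7909 and 8305 CPM, highest in sham and lowest in core occipital. The ratio of core occipital to sham was 0.725 [0.648–0.809], with an adjusted p of 4.81e-06 (Fisher's exact test, Benjamini-Hochberg), a difference under the 2-fold required for a call. Against core occipital the circle was at a ratio of 1.31 [1.17–1.47] in penumbra and 1.27 [1.13–1.41] in core frontal.

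Elf2, an ETS-family transcription factor, followed (chr3:51308050-51326035, exons 2 to 4) with 3690, 3274, 2844 and 3735 CPM. It was lowest in penumbra, where the ratio to sham was 0.761 [0.650–0.890] and the adjusted p 0.0829 (Fisher's exact test). Ankib1, a ring-between-ring ubiquitin ligase (chr5:3747021-3772787, exons 2 to 5), was at 2933, 3093, 3280 and 3210 CPM, with all 4 intervals overlapping. Rasa2, a GTPase-activating protein for Ras (chr9:96591950-96611499, exons 2 to 5), had 3353, 2479, 3259 and 3275 CPM. Core occipital was lowest, at a ratio of 0.757 [0.634–0.902] to sham and an adjusted p of 0.0885 (Fisher's exact test). Phf21a, a reader of unmodified histone H3 in the LSD1 complex (chr2:92214049-92230724, exons 2 to 6), had 3015, 2768, 2657 and 3510 CPM, highest in sham. Zfp148, a zinc finger transcription factor (chr16:33421321-33434974, exons 2 to 4), had 2933, 2467, 2252 and 2496 CPM, highest in core frontal.

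The next 6 had fewer counts. Rnf169, a reader of ubiquitin marks at DNA breaks (chr7:99935162-99955540, exons 2 to 4), had 315, 222, 254 and 239 counts, and sham was lowest in CPM. Tlk1, a kinase that acts on histone chaperones (chr2:70770004-70786995, exons 2 to 3), had 267, 211, 248 and 297 counts and was highest in sham. Ksr2, a scaffold of the Raf and MEK cascade (chr5:117500713-117505639, exons 2 to 3), had 272, 187, 280 and 271 counts and was highest in penumbra. None of these was called in any of the 3 comparisons with sham. Plcl2, a catalytically inactive relative of phospholipase C (chr17:50606295-50611195, exons 2 to 3), had 248, 228, 227 and 188 counts. It was highest in core occipital and lowest in sham, a ratio of 1.56 [1.28–1.90] between them with an adjusted p of 0.00385 (Fisher's exact test). Mboat2, a lysophospholipid acyltransferase (chr12:24878191-24924294, exons 2 to 4), had 280, 144, 191 and 281 counts, with core occipital at 0.657 [0.534–0.806] of sham (Fisher's exact test, adjusted p = 0.00876). Plcl2 and Mboat2 thus lay on opposite sides in the same pair of libraries. Homer1, a postsynaptic scaffold that binds metabotropic glutamate receptors (chr13:93341756-93356079, exons 2 to 5), had 233, 168, 189 and 223 counts, and its ratios to sham lay between 0.917 and 0.966 in the 3 MCAO libraries, each interval including 1.

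**Figure D3:**
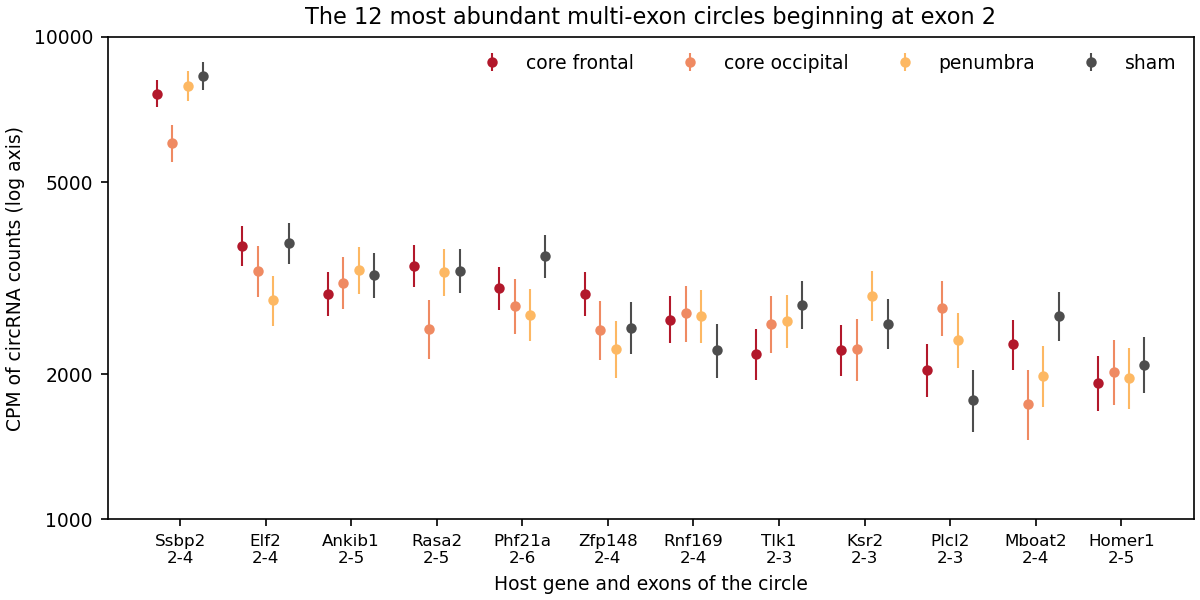
Level of the 12 most abundant exon-2 circles (CPM of circRNA counts, log axis) in each of the 4 libraries, with 95% Poisson intervals that cover counting error only. Ssbp2 stands at 6018 to 8305 CPM and every other circle at 3735 CPM or less. Homer1, the last of the 12 by mean level, stands at 1919 to 2093 CPM.

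For each pair of libraries every circRNA with 10 or more counts over both was tested, over the whole table, by Fisher's exact test with Benjamini-Hochberg adjustment. Calls of higher or lower needed both an adjusted p below 0.05 and a CPM that differed 2-fold or more. The test compares 2 libraries of pooled RNA and not the conditions they stand for, and the 6 pairs share libraries. Between 813 and 1002 of the 3978 exon-2 circles reached 10 counts in a pair. The others were left out by this filter. Among exon-2 circles with 100 or more counts in a pair (73 to 94), variation beyond counting error was 11.1% to 17.0%, which the test does not include. With the assumption of a coefficient of variation of 0.2 in edgeR's exact test, no exon-2 circle was called in any pair. Per pair, 20 to 54 of the 813 to 1002 exon-2 circles tested had an unadjusted p under 0.05 by that test. The share over all circRNAs by that test is not given here, so nothing is read from these numbers.

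In penumbra against sham, 0 of 902 exon-2 circles tested were called higher and 0 lower by Fisher's exact test. An unadjusted p under 0.05 was reached by 101 of these 902, and by 421 of all 3717 circRNAs tested, a similar share. Over all circRNAs tested, 0.0538% were called higher and 0.0% lower. The median log2 ratio of the exon-2 circles was −0.04, compared with 0.01 for all circRNAs tested. The one exon-2 circle with an adjusted p under 0.05 was that of Ptk2, focal adhesion kinase (chr15:73391759-73394744, exons 2 to 4), which did not reach the 2-fold required. It had 240, 116, 170 and 286 counts and was highest in sham in CPM. Its ratio to sham was 0.520 [0.416–0.648] in core occipital (Fisher's exact test, adjusted p = 9.73e-07), 0.657 in penumbra and 0.737 [0.618–0.878] in core frontal. The 3 ratios share the sham library.

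In core frontal against sham, 6 of 1002 exon-2 circles were called higher (0.599%) and 4 lower (0.399%). Over all circRNAs tested 0.289% were called higher and 0.458% lower. The median log2 ratio was 0.07, and 0.03 for all. The higher circles came from genes of several kinds. Epb41l3, a membrane-skeleton protein of the band 4.1 family (chr17:69207859-69210383, exons 2 to 3), had 81, 45, 45 and 30 counts. Sham was lowest in CPM, and the ratio of core frontal to sham was 2.37 [1.54–3.73] (Fisher's exact test, adjusted p = 0.0124). Fam53b, which takes part in the nuclear import of beta-catenin (chr7:132759389-132779385, exons 2 to 4), had 79, 59, 53 and 33 counts, with sham again lowest. It was called higher in core frontal (2.10 [1.38–3.26], adjusted p = 0.0425 by Fisher's exact test) and in core occipital (2.29 [1.47–3.62], adjusted p = 0.0272 by the same test), and stood at 1.78 [1.13–2.83] in penumbra without a call. Exons 2 to 3 of Fam53b, from the same acceptor, had 92, 80, 74 and 93 counts and were not called.

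Dpy19l1, of a family of mannosyltransferases (chr9:24462577-24485729, exons 2 to 8), had 42, 14, 14 and 10 counts, with core frontal highest. Its ratio to sham was 3.69 [1.82–8.24] (Fisher's exact test, adjusted p = 0.0249). Ash1l, a histone H3 lysine methyltransferase (chr3:88965812-88985790, exons 2 to 3), had 38, 19, 20 and 10 counts, with sham lowest and a ratio of 3.34 [1.63–7.51] in core frontal. Arel1, a HECT-type ubiquitin ligase that counters apoptosis (chr12:84934152-84951381, exons 2 to 8), had 24, 10, 7 and 4 counts and a ratio of 5.27 [1.81–20.9]. Exons 2 to 5 of Arel1, from the same acceptor, had 0 counts in core frontal and 5 in sham. Mvp, the major vault protein (chr7:126998226-127001958, exons 2 to 5), had 13, 4, 4 and 0 counts. With the floor of 3 counts in place of 0 in sham, it was at least 3.80-fold higher in core frontal, and the 95% interval reached down to 2.68. In penumbra and core occipital against sham the circle of Mvp fell below the 10 counts required and was not tested. The adjusted p of the called circles of Ash1l, Arel1 and Mvp lay between 0.0423 and 0.0492 (Fisher's exact test).

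The 4 lower circles in core frontal had adjusted p-values of 0.0423 to 0.0492 (Fisher's exact test). Magi2, a synaptic scaffold (chr5:19999442-20065671, exons 2 to 3), had 10, 16, 13 and 31 counts and a ratio of 0.283 [0.124–0.593]. Kcmf1, a ubiquitin ligase (chr6:72858774-72861925, exons 2 to 3), had 12, 15, 21 and 34 counts and a ratio of 0.310 [0.146–0.613]. Both were highest in sham and lowest in core frontal. Adam10, the main alpha-secretase (chr9:70703287-70748266, exons 2 to 8), had 2, 6, 4 and 17 counts and a ratio of 0.103 [0.0116–0.435]. Eed, a core subunit of Polycomb repressive complex 2 (chr7:89972231-89977049, exons 2 to 3), had 10 counts in sham and 0 in each of the 3 MCAO libraries. At the floor of 3 counts it was at least 3.80-fold lower in core frontal, with an interval that reached down to 2.55. The adjusted p was 0.151 in penumbra and 0.131 in core occipital (Fisher's exact test), whose totals are smaller. With its 10 counts the circle of Eed just met the minimum for the test. With DESeq2 size factors it was not called in core frontal (Fisher's exact test, adjusted p = 0.0512).

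In core occipital against sham, 4 of 826 exon-2 circles were called higher (0.484%) and 1 lower (0.121%), beside 0.292% higher and 0.175% lower over all circRNAs tested. The median log2 ratio was −0.10, and −0.06 for all. With TMM factors from edgeR the split was 2 higher and 3 lower. Besides Fam53b, the higher circles were these. Satb1, an organizer of chromatin loops (chr17:51767892-51809287, exons 2 to 9), had 49, 62, 49 and 37 counts, with core occipital highest in CPM and a ratio of 2.15 [1.41–3.32] (Fisher's exact test, adjusted p = 0.0370). Fbxo38, a substrate receptor of a Cullin ubiquitin ligase (exons 2 to 14, chromosome 18), had 57, 69, 32 and 44 counts and a ratio of 2.01 [1.36–3.01] (Fisher's exact test, adjusted p = 0.0416). Core occipital stood apart from the other three in CPM for Fbxo38. Smarca2, an ATPase of the BAF chromatin remodelling complex (chr19:26619684-26640649, exons 2 to 5), had 5, 10, 9 and 0 counts and was at least 4.27-fold higher at the floor of 3 counts in sham, with an interval that reached down to 2.87. With these 10 counts the circle of Smarca2 just met the minimum for the test. In penumbra and core frontal against sham it fell below that minimum and was not tested. The lower circle was that of Map2k4, a kinase upstream of JNK and p38 (chr11:65756269-65775765, exons 2 to 3), with 17, 3, 11 and 26 counts. It was lowest in core occipital, at a ratio of 0.148 [0.0287–0.483] to sham (Fisher's exact test, adjusted p = 0.0368). At 136 bases it was also the shortest circle among exon-2 circles with 40 or more counts. Exons 2 to 4 of Map2k4, from the same acceptor, had 7 counts in core occipital and 3 in sham.

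Ratios over all circRNAs varied with GC content. Along the GC content of the spliced sequence, the fitted log2 ratio of core occipital to sham over all circRNAs ran from −0.26 at 40% GC to 0.23 at 55% GC. The higher circles of this pair had a GC content of 58.2% (Fam53b), 50.5% (Satb1), 47.1% (Fbxo38) and 61.5% (Smarca2), and that of Map2k4 was 41.9%. With the GC trend removed, the ratio of Fam53b went from 2.29 to 1.82, that of Satb1 from 2.15 to 2.02, that of Fbxo38 from 2.01 to 1.97 and the bound of Smarca2 from 4.27 to 3.19. Their adjusted p-values were then 0.0626 to 0.233 (Fisher's exact test). Map2k4 was the 1 exon-2 circle still called in core occipital against sham, at a ratio of 0.170 and an adjusted p of 0.0490 (Fisher's exact test). Of circles described above but not called in this pair, Ssbp2 (45.5% GC), Rasa2 (36.3%), Mboat2 (40.9%) and Ptk2 (42.4%) were lower. Plcl2 (46.2%) was higher. Their ratios above are given without removal of the GC trend. In core frontal against sham the trend was flat, at −0.02 and −0.05, and all 10 calls remained, with 1 more. Over the 6 pairs, 16 of 27 calls remained with the GC trend removed.

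In penumbra against core frontal, 2 of 953 exon-2 circles were called higher (0.210%) and 5 lower (0.525%). Over all circRNAs tested 0.53% were called higher and 0.404% lower. The median log2 ratio was −0.12, and −0.05 for all. With TMM factors the split was 3 higher and 4 lower. Glce, an epimerase of heparan sulfate synthesis (chr9:62068385-62088519, exons 2 to 4), had 39, 12, 7 and 24 counts, most in core frontal and fewest in penumbra. Its ratio was 0.226 [0.0854–0.511] (Fisher's exact test, adjusted p = 0.0154). Smarca1, an ATPase of the ISWI chromatin remodellers (chrX:47811158-47887198, exons 2 to 23), had 111, 41, 43 and 80 counts. Core frontal and sham lay above core occipital and penumbra, and the ratio of penumbra to core frontal was 0.488 [0.335–0.700] (Fisher's exact test, adjusted p = 0.0154), just past the 2-fold limit.

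Nbea, neurobeachin, which takes part in the traffic of synaptic receptors (chr3:56085242-56091120, exons 2 to 6), had 53, 19, 13 and 27 counts and a ratio of 0.309 [0.155–0.575] (Fisher's exact test, adjusted p = 0.0157). R3hdm1, an RNA-binding protein with an R3H domain (chr1:128151744-128153399, exons 2 to 3), had 44, 16, 10 and 18 counts and a ratio of 0.286 [0.128–0.577] (Fisher's exact test, adjusted p = 0.0216). Both were highest in core frontal, with the other 3 libraries below it. Exons 2 to 8 of Nbea, from the same acceptor, had 158, 92, 128 and 105 counts and were not called. Ppp6r2, a regulatory subunit of protein phosphatase 6 (chr15:89242160-89246340, exons 2 to 3), had 30, 3, 4 and 18 counts. Core occipital and penumbra were low and core frontal and sham high. The ratio was 0.168 [0.0430–0.477] in penumbra against core frontal (Fisher's exact test, adjusted p = 0.0216). The 2 higher circles had few counts in core frontal. Gnai1, an inhibitory G protein alpha subunit (chr5:18308553-18308825, exons 2 to 3), had 5, 11, 20 and 14 counts and a ratio of 5.04 [1.84–17.2] (Fisher's exact test, adjusted p = 0.0390). Pde4dip, myomegalin, an anchor at centrosome and Golgi (chr3:97841634-97843714, exons 2 to 3), had 1, 10, 12 and 6 counts and a ratio of 15.1 [2.24–646] (Fisher's exact test, adjusted p = 0.0419). Exons 2 to 4 of Pde4dip, from the same acceptor, had 2 counts in penumbra and 8 in core frontal. With the GC trend removed, Smarca1 (0.542, adjusted p = 0.0350 by Fisher's exact test) fell short of the 2-fold limit, and Gnai1 (4.66) and Pde4dip (13.2) kept ratios near those above but not the adjusted p.

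Between the 2 parts of the infarct core, most exon-2 circles tested were at a higher CPM in the frontal part. In core frontal against core occipital the median log2 ratio was 0.19, compared with 0.07 over all circRNAs tested, and 59.2% of the exon-2 circles tested were above a ratio of 1, against 54.3% of all. Of 928 exon-2 circles, 3 were called higher (0.323%) and 1 lower (0.108%), beside 0.185% and 0.159% over all circRNAs tested. With TMM factors the split was 5 higher and 0 lower. Zdhhc21, a palmitoyltransferase (chr4:82835446-82854115, exons 2 to 6), had 173, 59, 83 and 139 counts. It was high in core frontal and sham and low in core occipital and penumbra, with a ratio of 2.01 [1.49–2.74] between the cores (Fisher's exact test, adjusted p = 0.00204). Exoc6, a subunit of the exocyst, which tethers vesicles at the plasma membrane (chr19:37570383-37609105, exons 2 to 18), had 36, 5, 20 and 26 counts, with core occipital lowest. Its ratio was 4.93 [1.93–16.1] (Fisher's exact test, adjusted p = 0.0243). Ppp6r2 was at 6.84 [2.13–35.0] in the same pair. Wscd2, a protein with WSC and sulfotransferase domains (chr5:113550423-113558463, exons 2 to 3), had 53, 77, 67 and 70 counts and was lowest in core frontal, at 0.471 [0.326–0.677] of core occipital (Fisher's exact test, adjusted p = 0.0106). With the GC trend removed none of the 4 was called, at ratios of 1.84 for Zdhhc21, which kept an adjusted p of 0.0243 (Fisher's exact test), 4.37 for Exoc6, 6.11 for Ppp6r2 and 0.617 for Wscd2. In this pair the trend fell from 0.17 at 40% GC to −0.28 at 55% GC.

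In penumbra against core occipital, 0 of 813 exon-2 circles were called higher and 1 lower (0.123%), beside 0.0303% higher and 0.0303% lower over all circRNAs tested. The median log2 ratio was 0.05, and 0.01 for all. The 1 circle was that of Fbxo38, at a ratio of 0.400 [0.254–0.617] (Fisher's exact test, adjusted p = 0.0148), and it was still called with the GC trend removed. Both calls of Fbxo38 rest on the core occipital library. Over the 6 pairs there were 27 calls of 24 exon-2 circles, and only Fam53b, Fbxo38 and Ppp6r2 were called in more than 1 pair. With TMM factors 23 of the 27 calls remained, and with DESeq2 size factors 24. The calls lost with TMM were those of Wscd2, Smarca1 and Satb1, and that of Fbxo38 in core occipital against sham. With DESeq2 size factors the calls of Arel1 and Eed and the same call of Fbxo38 were lost. TMM moved the median log2 ratio of all circRNAs from −0.06 to −0.17 in core occipital against sham, from 0.01 to 0.14 in penumbra against core occipital and from 0.07 to 0.16 in core frontal against core occipital.

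**Figure D4:**
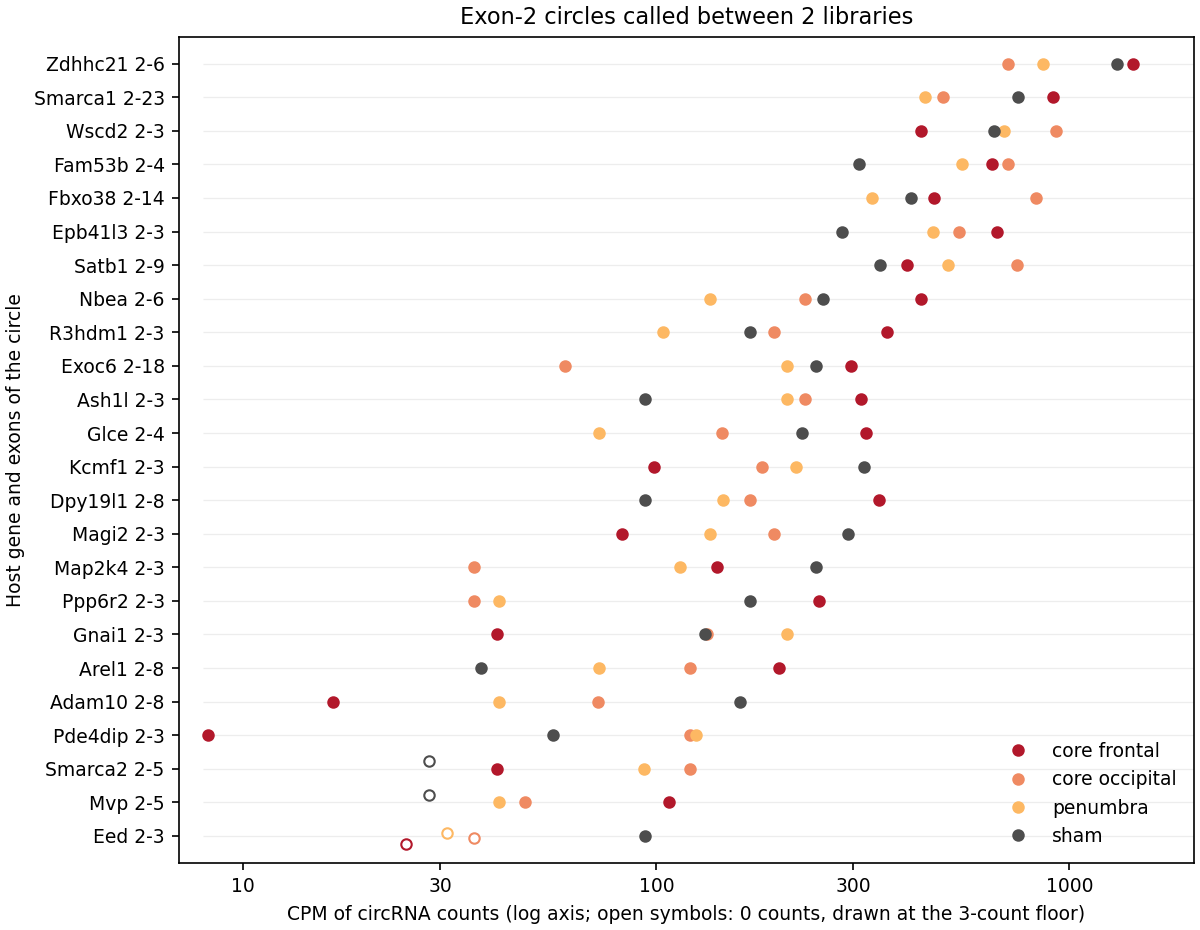
Level (CPM of circRNA counts, log axis) in each of the 4 libraries of the 24 exon-2 circles called between 2 libraries, with open symbols for libraries with 0 counts drawn at the floor of 3 counts. The circles of Eed (0 counts in the 3 MCAO libraries), Mvp and Smarca2 (0 counts in sham) carry the open symbols, and core frontal is highest for Epb41l3, Dpy19l1, Nbea and R3hdm1.

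Some well-covered circles had an adjusted p under 0.05 below the 2-fold limit. Crebrf, a regulator of the CREB3 family (chr17:26736789-26743131, exons 2 to 4), had 242 counts in core frontal, compared with 146 in sham (1.45 [1.18–1.80]), 109 in penumbra and 95 in core occipital. The ratio was 1.74 [1.37–2.23] against core occipital, and that of penumbra to core frontal was 0.567 [0.448–0.714]. Acaca, acetyl-CoA carboxylase (chr11:84193079-84195687, exons 2 to 3), had 67 counts in core occipital and 148 in sham, 0.581 [0.428–0.780]. Stx6, a SNARE of the trans-Golgi network (chr1:155173986-155197435, exons 2 to 7), had 143 counts in core frontal and 153 in core occipital, 0.640 [0.506–0.809]. The adjusted p of these 5 comparisons lay between 6.25e-04 and 0.0443 (Fisher's exact test).

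Circles that share the exon-2 acceptor differ in the exon whose donor is joined to it, and the split between them does not depend on library scaling. In 895 hosts there were 2 or more exon-2 circles, in 106 there were 5 or more, and the most was 11, in Agtpbp1, a tubulin deglutamylase, and Rabgap1, a GTPase-activating protein for Rab proteins. The circles of Agtpbp1 ended at 11 exons between exon 5 and exon 25, with 93 counts on exons 2 to 17, 59 on exons 2 to 11 and 47 on exons 2 to 25, which joins the most exons among exon-2 circles with 40 or more counts. In Rabgap1 the circles of exons 2 to 5 and of exons 2 to 13 had 59 counts each. Counts were thus spread over several donors in both genes. In Tlk1, 1 of 10 circles held 70.4% of the counts, and in Ptk2 1 of 10 held 73.6%. The 10 circles of Stag1, a cohesin subunit, used 2 acceptors, each being exon 2 of a different transcript, and the leading one (chr9:100705153-100738142, exons 2 to 4) had 55, 51, 35 and 44 counts.

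For families with 20 or more counts in a pair of libraries on their 2 leading circles, Fisher's exact test compared the split between these 2 circles, with adjustment over all 6968 tests of 1431 families of the table. Of these, 392 families with 1983 tests were of exon-2 circles. The leading circle held a median of 79.3% of the counts of both, 90% or more in 105 families and under 60% in 52. The leading circle had fewer exons than the second in 226 families and more in 164, and in 159 the last exons were adjacent. In 138 of the 1983 tests (6.96%) the unadjusted p was under 0.05, compared with 6.76% of all tests of the table. After adjustment 1 of them was called, and 3 (0.0431%) in the whole table.

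The called family was Dpy19l1. Its leading circle, exons 2 to 7 (chr9:24473774-24485729), had 56, 47, 47 and 71 counts, and the circle of exons 2 to 8 had 42, 14, 14 and 10. The leading circle held 57.1% [46.7–67.1] of the counts of both in core frontal, 77.0% [64.5–86.8] in penumbra as in core occipital, and 87.7% [78.5–93.9] in sham. Core frontal was thus lowest and sham highest, with an adjusted p of 0.0309 for this pair (Fisher's exact test, Benjamini-Hochberg). Of these 2 leading circles, among 6 with this acceptor, that of exons 2 to 8 was called in core frontal against sham and that of exons 2 to 7 was not.

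In the Ash1l family, chosen after its values were seen, exons 2 to 3 had 38, 19, 20 and 10 counts and exons 2 to 5 (chr3:88965812-89007877) had 6, 4, 2 and 16. The shorter circle held 86.4%, 82.6% and 90.9% in the MCAO libraries and 38.5% [20.2–59.4] in sham, so that sham was the one library in which the longer circle led. The adjusted p for core frontal against sham was 0.0877 (Fisher's exact test). Splits of the most abundant families follow. Exons 2 to 5 of Rasa2 held 73.7%, 73.0%, 71.4% and 68.7% of the counts beside exons 2 to 4. Exons 2 to 4 of Elf2 held 81.0%, 77.5%, 77.4% and 76.8% beside exons 2 to 5. In Ptk2, exons 2 to 4 held 81.6%, 82.3%, 82.5% and 90.8% beside the circle one exon shorter. The intervals of core frontal [76.7–85.9] and sham [87.0–93.7] did not overlap, but the split of Ptk2 was not called in any pair after adjustment over all families.

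**Figure D5:**
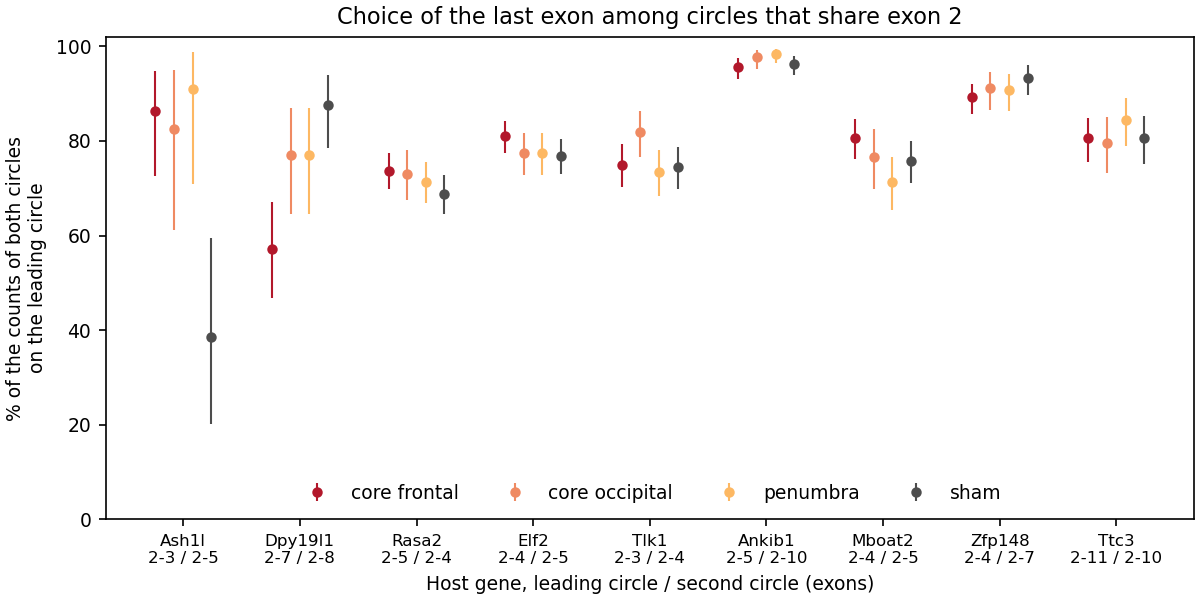
Percent of the counts of the 2 leading circles of a family on the leading circle, in each of the 4 libraries, with exact binomial 95% intervals, for the called family Dpy19l1, for Ash1l and for 7 abundant families. Dpy19l1 lies lowest in core frontal (57.1%) and Ash1l lowest in sham (38.5%), while each of the 7 abundant families shown has overlapping intervals in all 4 libraries. The Ptk2 family is not shown.

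Hosts were grouped in 8 lists of 30 genes written from general knowledge of brain circRNA hosts, with earlier results of these data known. Each list is given by its counts and medians, beside medians of 0.01, 0.03 and −0.06 over all circRNAs tested in penumbra, core frontal and core occipital against sham. Over all circRNAs tested, 0.0538% were called higher and 0.0% lower in penumbra against sham, 0.289% and 0.458% in core frontal, and 0.292% and 0.175% in core occipital. With 5 to 27 circles tested per list, 1 call alone is a larger share than these, so the calls of a list are named and nothing is read from their number. Hosts of exon-2 circles were most frequent in the ubiquitin and proteolysis list, with 22 of 30 genes and 52 circles, and least frequent in the synapse list, with 10 of 30 and 21 circles. The 6 lists between them had 13 to 17. The listed genes were picked with earlier results known, so nothing is read from this order. Over all 4590 hosts of multi-exon circles, 48.9% had an exon-2 circle.

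Among synapse and scaffold genes, 8 exon-2 circles were tested in each MCAO library against sham and 1 was called, that of Magi2. The median log2 ratios were −0.25, −0.22 and −0.17. Unc13b, a vesicle priming protein (exons 2 to 7), had 21, 6, 11 and 9 counts and Rims2, of the presynaptic active zone (exons 2 to 10), had 12, 9, 15 and 9. Among ion channels, transporters and glutamate receptors, 14 of 30 genes had 21 exon-2 circles, 5 to 7 of them tested and 0 called in any pair by Fisher's exact test. The medians were −0.05, 0.08 and −0.74, the last over 5 circles. Kcnh5, a voltage-gated potassium channel (exons 2 to 6), had 64, 29, 37 and 62 counts. Grm5, a metabotropic glutamate receptor (exons 2 to 3), had 47, 13, 19 and 31. Cacna1c, an L-type calcium channel (exons 2 to 3), had 28, 10, 12 and 32. These 3 were lower in core occipital and penumbra than in the other 2 libraries in CPM, without a call. Nalcn, a sodium leak channel (exons 2 to 6), had 41, 21, 31 and 34.

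Among chromatin genes, 15 of 30 had 37 exon-2 circles, with 8 or 9 tested and 3 calls, of Ash1l, Eed and Smarca2. The medians were 0.05, −0.60 and −0.34. The circle of Smarca2 exons 2 to 9 had 15, 11, 16 and 20 counts and was not called, unlike exons 2 to 5. Ezh2, the methyltransferase of Polycomb repressive complex 2 (exons 2 to 15), had 13, 13, 23 and 17, and Arid1b, of the BAF complex (exons 2 to 4), had 23, 12, 12 and 11. The circle of Eed had 10 counts in all, the minimum for the test, each of them in sham. Among ubiquitin and proteolysis genes 12 to 14 circles were tested, with 2 calls, both of Fbxo38, and medians of −0.31, 0.18 and −0.15. Fbxl17, an F-box protein (exons 2 to 4), had 85, 46, 57 and 79 counts. Ube2k, a ubiquitin-conjugating enzyme (exons 2 to 6), had 59, 29, 36 and 53. Ubr3 (exons 2 to 5), Arih1 (exons 2 to 5), Ube3a (exons 2 to 4) and Usp15 (exons 2 to 8) had between 16 and 50 counts in each library and no call.

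Among kinases and phosphatases, 13 of 30 genes had 48 exon-2 circles, and 23 to 27 were tested, the most of any list. There was 1 call, of Map2k4, and the medians were −0.08, −0.04 and −0.13. Stk39, a kinase that regulates cation-chloride cotransport (exons 2 to 5), had 180, 117, 128 and 138 counts. Cdk8, of the Mediator kinase module (exons 2 to 4), had 70, 43, 45 and 64, and Stk3, a Hippo pathway kinase (exons 2 to 6), had 74, 40, 44 and 47. Among RNA-binding and splicing genes, 17 of 30 had 45 circles, with 12 to 17 tested, 0 called in any pair by Fisher's exact test, and medians of −0.16, 0.13 and −0.05. Qk, quaking, a splicing regulator known to promote circRNA formation (chr17:10238893-10282981, exons 2 to 4), had 12, 14, 20 and 7 counts, highest in penumbra and lowest in sham in CPM. Pum2, a translational repressor (exons 2 to 5), had 17, 4, 7 and 14 counts. Elavl2, a neuronal RNA-binding protein (exons 2 to 3), had 29, 21, 49 and 41. Cpsf6 (exons 2 to 10), Cnot2 (exons 2 to 4) and Cnot6l (exons 2 to 4) had between 13 and 48 in each library.

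Among cytoskeleton and adhesion genes, 16 of 30 had 37 circles, with 7 to 9 tested, 1 call, of Epb41l3, and medians of 0.15, 0.28 and 0.36. Arhgef12, a guanine nucleotide exchange factor (exons 2 to 4), had 18, 10, 22 and 13 counts and Arhgap10 (exons 2 to 3) had 11, 12, 14 and 15. Among transcription factors and cofactors, 15 of 30 had 34 circles, with 16 to 18 tested and 1 call, of Satb1. Their medians were 0.29, 0.23 and 0.28, above 0 in all 3 comparisons, which share the sham library. Tcf20, a nuclear coregulator (chr15:82825231-82857284, exons 2 to 3), was the longest exon-2 circle with 40 or more counts, at 5866 bases spliced, with 74, 80, 78 and 66 counts. Zmynd11, a reader of methylated histone H3.3 (exons 2 to 4), had 32, 20, 11 and 30, and Ncoa2, a nuclear receptor coactivator (exons 2 to 4), had 14, 9, 13 and 12.

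The cell types behind these circles can be read only from the hosts, since linear RNA was not part of the table, and in whole tissue fewer cells of a type and less circRNA per cell cannot be told apart. Of 6 astrocyte genes only Slc1a2, a glutamate transporter, hosted an exon-2 circle (6, 2, 6 and 6 counts). Of 6 neuronal genes only Grin2b, an NMDA receptor subunit, did (0, 1, 1 and 0), although 4 of the 6 hosted some such circRNA, together at 2150, 2515, 2377 and 2102 CPM. Of 6 oligodendrocyte genes only Qk, which is also among the RNA-binding genes above, hosted exon-2 circles, 2 of them with 22, 18, 24 and 9 counts in all, and none was called. Mbp, Mobp and Mog, of myelin, hosted no circRNA with both ends on their exon boundaries. No exon-2 circle came from 6 microglia and leukocyte or 6 endothelial and mural genes, and of the microglia and leukocyte genes none hosted any circRNA with both ends on its exon boundaries. The part of a change in cell types in the ratios above was not tested.

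The span limit of 100000 bases left out 331 circles that otherwise matched. Just inside it lay Arhgap10 exons 2 to 16 (chr8:77351614-77450923; 0, 0, 2 and 0 counts) and Lrrc7 exons 2 to 4 (chr3:158353265-158452789; 3, 6, 8 and 2). Just outside lay Nav3 exons 2 to 3 (chr10:110216702-110317021; 7, 2, 8 and 3) and Cdh10 exons 2 to 9 (chr15:18899475-18999985; 0, 1, 1 and 2). The numbering of exon 2 also depends on the transcript. In 3664 of the circles the first exon was exon 2 in every transcript that holds both ends, while 5903 circles met the rule when any 1 transcript sufficed, and 348 of the 3978 were numbered on a transcript annotated as noncoding. Of the 24 called circles, 23 began at exon 2 in every such transcript.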

How the data were processed

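The authors deposited whole-number counts of 23980 circRNAs in 4 libraries, identified by chromosome, start and end, without gene names or strand. TopHat2 2.0.10, Bowtie and the build mm9 are named per the submitters' processing notes; the circRNA caller is not given in the sources used here. The deposited coordinates fit GRCm38 instead: 89.1% of starts and 89.7% of ends lay on GENCODE M21 exon boundaries, and 0.192% of starts when moved by 1 base. The deposited FPKM table was not used. Both ends lay on exons of a protein-coding gene for 19742 circRNAs; 99 with more than 1 such gene and 277 with no transcript that holds both ends were left out. The strand is that of the host, so antisense genes cannot be told apart.

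Counts were scaled to the library's total, and 3 counts correspond to 24.7, 36.1, 31.1 and 28.2 CPM. With 1 library per group edgeR's quasi-likelihood test cannot be fitted. Fisher's exact test (two-sided, SciPy 1.17.1) with Benjamini-Hochberg adjustment was used instead, on the whole table. Ratios carry exact conditional intervals and shares exact Clopper-Pearson intervals; without molecular identifiers, reads from PCR need not be separate molecules. The GC trend was a lowess fit (statsmodels 0.14.6) to the log2 ratios of circRNAs with 30 or more counts. TMM came from edgeR 4.0.16 and size factors from DESeq2 1.42.0. The script was tested on simulated counts. Circles named are the 12 most abundant, all that were called, the leading circle of the 5 hosts with the most, called families, leading circles with 40 or more counts of listed hosts, extremes of length and exon number, and those next to the span limit; 1 of these circles is not reported here. The listed symbol Qki was matched to Qk through RefSeq synonyms. The members and lists were chosen with earlier results of these data known. Splice-site dinucleotides were not computed, because no genome sequence was used here.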

Additional observations from a re-analysis of the deposited data

How the results depend on the processing

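The counts of called exon-2 circles depended most on the count filter and the error model. Without the count filter, which adds many circles that cannot reach significance, 0 were called in core frontal against sham, core occipital against sham, penumbra against core frontal and penumbra against core occipital, and 1 in core frontal against core occipital. With the exact test of edgeR and a coefficient of variation set to 0.2, 0 were called in those 5 comparisons. Of 1002, 826, 953, 813 and 928 exon-2 circles tested, 54, 38, 52, 20 and 47 had an unadjusted p under 0.05 by that test. Nothing is read from these numbers, since the share over all circRNAs by that test is not given here. With the GC trend removed, 1 was called in core occipital against sham and 0 in core frontal against core occipital; the cause was not tested. With exon 2 required in only 1 transcript more circles were tested. In penumbra against core frontal 11 of 1374 were then called, beside 7 of 953 as reported. In penumbra against core occipital 2 of 1167 were called, beside 1 of 813. Over all circRNAs tested 0.53% were called higher and 0.404% lower in the first of these pairs, and 0.0303% each way in the second. With 40 or more counts in a family 2 of 220 families were called, beside 1 of 392 as reported. Other alternatives kept the counts within 1.5 times those reported, and penumbra against sham stayed at 0 under every alternative run.

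The share of counts on exon-2 circles (core frontal first, then core occipital, penumbra and sham) was 24.0%, 22.5%, 23.1% and 23.7% with exon 2 required in every transcript, 35.7%, 34.1%, 34.7% and 35.6% in at least 1 transcript, 28.2%, 26.6%, 27.3% and 27.9% with no span limit, and 28.0%, 26.4%, 27.0% and 27.8% over circRNAs with 10 or more counts. Under each of these core occipital was lowest. No replicate could be left out with 1 library per group. No paired analysis was possible because each group has 1 library. Depth limits the tests: 1497 of the 3978 exon-2 circles had 10 or more counts over the 4 libraries.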
